A study of Mus musculus with 3 samples.

Results

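The genes described here make and export lipid: 15 enzymes of sterol synthesis, 4 regulators of lipid synthesis, 6 enzymes of fatty acid synthesis and 3 genes of cholesterol efflux, 28 in all. A gene was represented by the brightest of the probe sets whose platform annotation gave its symbol and no other, and 26 of the 28 could be read in this way, out of 22087 genes with such a probe set. Idi1, the isomerase of isopentenyl diphosphate, and Scd2, a fatty acid desaturase, each had a probe set that the annotation gives to several genes, and their levels were not used here. Each of the 26 genes had 1 probe set. They were measured on Affymetrix arrays in 3 samples of mouse tumour stroma, all labelled Dicer1 +/-, a genotype that leaves 1 functional copy of the gene for the endonuclease that matures microRNAs. The cells were live, sorted as negative for the endothelial protein PECAM1 and for the red fluorescent protein tdTomato, which in this design marks the tumour cells. The sources used here do not give the driver of tdTomato, the tumour type, the age of the mice or whether the samples came from separate animals. Stroma of the other genotype in the series title was not analysed here, so no comparison between genotypes and no test between groups could be made, and every SD measures the spread between these 3 samples alone. In sorted populations of mixed cells, fewer cells of a type and less RNA per cell cannot be told apart.

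Cells build cholesterol from acetyl-CoA through mevalonate, farnesyl diphosphate, squalene and lanosterol, and fatty acids from acetyl-CoA through malonyl-CoA. Both routes are driven by the SREBP transcription factors, which the escort protein SCAP carries out of the endoplasmic reticulum when sterols are low and which INSIG proteins hold back when sterols are high. The opposite arm is the nuclear receptor LXR, which senses oxidised sterols and switches on the transporters that load cholesterol onto lipoproteins. Fibroblasts and macrophages, the cells expected in tumour stroma, use both arms, and macrophages depend on efflux after taking up dying cells.

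All 26 measured genes were detected, meaning that their log2 intensity exceeded a background level on each of the 3 arrays. That level, 5.16, 5.11 and 5.20 for samples 1 to 3, was the 95th percentile of the array's 1438 receptor probe sets (olfactory, vomeronasal and taste), which stroma is not expected to express. Of all 20658 genes outside those receptors 60.5% met this rule. The members' means ran from 5.44 for Lss to 9.47 for Insig1. These levels were not ranked between genes, because probe sets differ in brightness. Markers of the cells that the gate should keep were detected, with 8 of 8 fibroblast genes (Pdgfra, Dcn, Lum and Col1a1 among them), 8 of 8 pericyte and smooth muscle genes (among them Rgs5, Acta2, Myh11 and Cnn1) and 8 of 8 macrophage and monocyte genes (with Cd68, Adgre1, Csf1r and Cd14). The same held for 8 of 8 neutrophil genes and 6 of 6 measured T cell genes. Of 8 endothelial genes 6 were detected, and the others, Emcn and Cldn5, exceeded the detection level in sample 3 alone. Pecam1, whose protein the gate was meant to leave out, stood at 8.02, 7.2 and 8.25 in samples 1 to 3. Which cells gave this Pecam1 signal was not tested.

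**Figure D1:**
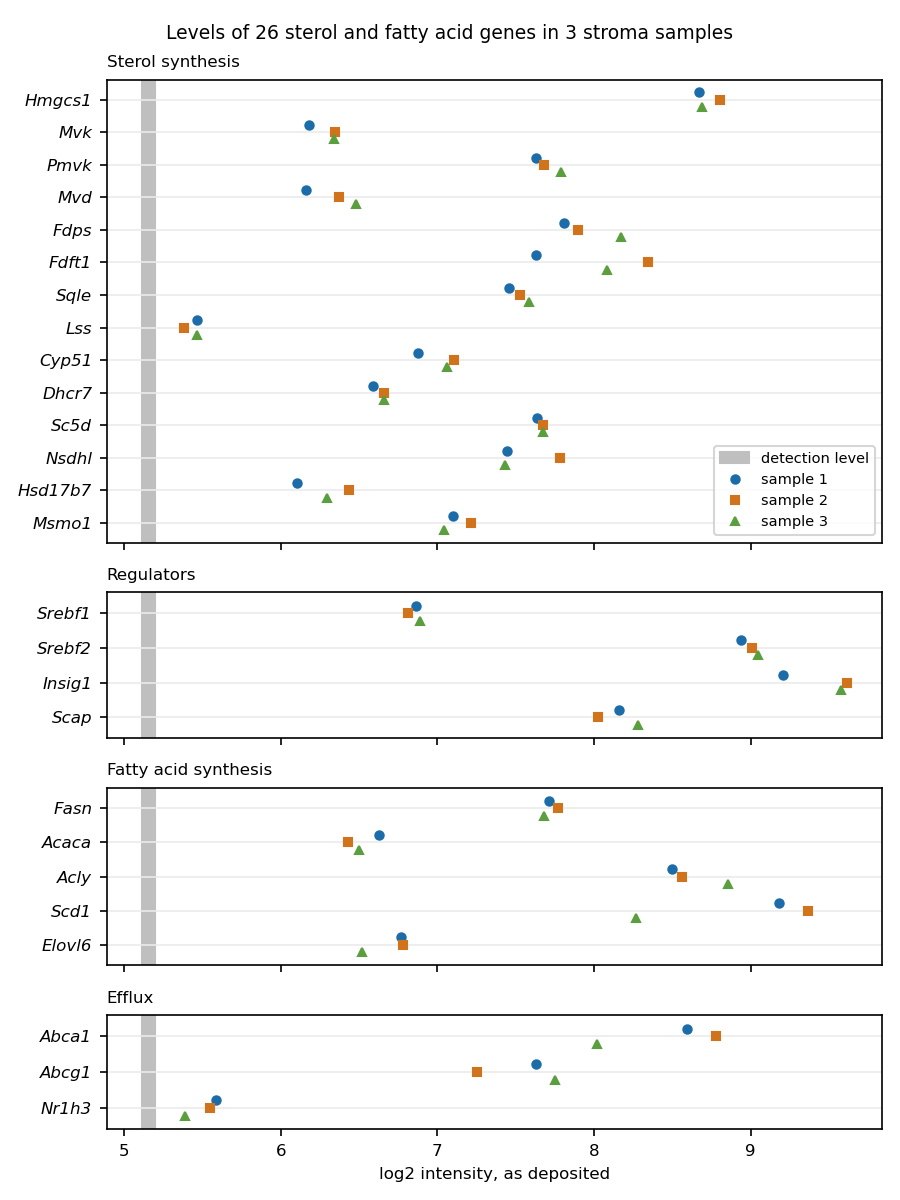
Log2 intensity of the 26 measured genes (rows) in samples 1, 2 and 3 (points), with the span of the 3 detection levels as a grey band. All points lie to the right of the band, and for most genes the 3 points are close, while Scd1, Abca1 and Fdft1 are the most spread.

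The sterol synthesis enzymes were detected as a complete chain apart from Idi1, and their levels were close in the 3 samples. Hmgcs1, which makes the precursor of mevalonate, stood at 8.67, 8.81 and 8.69 in samples 1, 2 and 3. The kinases Mvk and Pmvk, which phosphorylate mevalonate in turn, stood at 6.18, 6.35 and 6.34 and at 7.63, 7.68 and 7.79. Both kinases had their lowest value in sample 1. Mvd, which makes isopentenyl diphosphate, was at 6.16, 6.37 and 6.48, or 6.34 ± 0.16 on average (SD, n = 3). Fdps, which condenses these units into farnesyl diphosphate, was at 7.81, 7.90 and 8.18, the highest of them in sample 3.

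Fdft1, squalene synthase, the first enzyme committed to sterols, varied most in this list. It stood at 7.63 in sample 1, 8.34 in sample 2 and 8.08 in sample 3, a range of 0.71 (1.64-fold) that was larger than the range of 86.5% of all genes detected on at least 1 array. Without sample 1 its range was 0.26. Sqle, the oxygenase of squalene, was at 7.46, 7.53 and 7.58, and its range of 0.12 exceeded that of 16.2% of all genes. The cyclase Lss, which closes the ring system, stood at 5.47, 5.38 and 5.47, near the detection level.

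The later enzymes, which trim lanosterol to cholesterol, had ranges between 0.04 and 0.35. The demethylase Cyp51 stood at 6.88, 7.10 and 7.06 in samples 1 to 3, and the methylsterol oxidase Msmo1 at 7.10, 7.21 and 7.04. Nsdhl, which removes the carboxyl group left by that oxidation, was at 7.44, 7.79 and 7.43, and the ketone reductase Hsd17b7 was at 6.11, 6.43 and 6.30. Both were highest in sample 2. The desaturase Sc5d had the smallest range of the 26 genes, 0.04, with 7.63 in sample 1 and 7.67 in samples 2 and 3. Dhcr7, the last reductase of the route, stood at 6.59 in sample 1 and 6.66 in the others. Lss, Dhcr7 and Sc5d each had exactly equal values on 2 arrays, as 10.8% of all genes detected on at least 1 array had on at least 2. A tie sets no limit on the distance to the third value, and its part in their small ranges was not tested.

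The median range of the 14 sterol synthesis genes was 0.17 on the log2 scale, against 0.31 over the 13636 genes detected on at least 1 array and 0.31 over the genes whose mean lay between those of Lss and Insig1. Of the 14, 9 had a range below the median of all genes, where 50% lie by definition. No sterol synthesis gene had a range above 1, that is 2-fold, which 5.7% of all genes had. The 5 with a range above the median were Mvd, Fdps, Fdft1, Nsdhl and Hsd17b7. Over all 26 members the median range was 0.21, and 16 of 26 lay below the median of all genes.

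**Figure D2:**
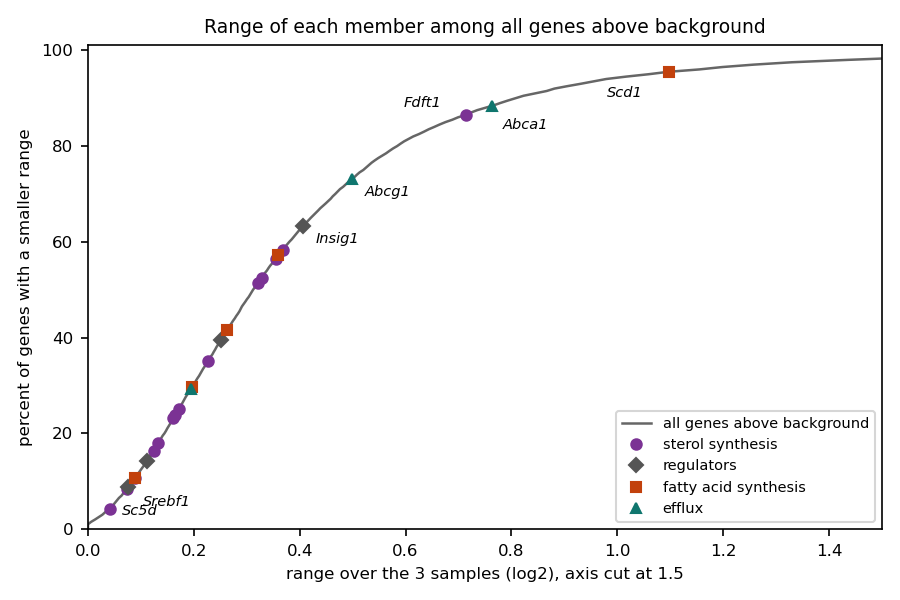
Each point is a measured member, placed by its range over the 3 samples (log2, horizontal) and by the percent of all genes detected on at least 1 array that had a smaller range (vertical); the line gives all 13636 such genes, with the axis ending at 1.5. Sc5d lies at the low end with 0.04, and Fdft1 (0.71), Abca1 (0.76) and Scd1 (1.10) lie above the other members.

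Small as they were, the differences in this list mostly ran the same way, with sample 1 below the others. Of the 14 genes 11 had their lowest value in sample 1, against 31.2% of all genes, and the 3 that did not were Lss, Nsdhl and Msmo1. Set pair by pair, 13 of 14 were higher in sample 2 than in sample 1, against 50.7% of all genes, with Lss as the exception and a median difference of 0.12 on the log2 scale. In sample 3 minus sample 1, 11 of 14 were higher, against 47.6% of all genes, and the median difference was 0.14. Between samples 3 and 2 there was no common direction: 5 genes were higher in sample 3, where 47.6% of all genes were, 7 were lower, and 2 were equal. The medians of the deviations from each gene's mean were -0.09, 0.05 and 0.04 for samples 1 to 3, a span of 0.14 (1.10-fold) that was 0.0027 without sample 1. Over all genes these medians spanned 0.007. A median over 13636 genes on arrays with nearly equal medians lies near 0, so it gives no scale for a list of 14. The 12 further sterol pathway genes described below spanned 0.12. The 14 values of a sample come from 1 array, so their common direction is 1 observation and not 14. Under other scalings of the arrays the count was 10 (each array centred on its median) and 12 (quantile normalization) of 14.

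Cell type markers differed between the samples too, by more than the sterol genes did. T cell and B cell markers were highest in sample 1, in 6 of 6 and 7 of 7 genes, against 28.8% of all genes. Median deviations in samples 1 to 3 were 0.99, -1.0 and -0.02 for 6 T cell genes (Cd3e, Cd3d, Cd3g and Cd8b1 among them). For 7 B cell genes (Ms4a1, Cd79a, Cd79b and Jchain among them) they were 0.65, -0.37 and -0.34. Median deviations of the 8 neutrophil markers were -0.51, -0.03 and 0.52. Of these 8 genes 6 were lowest in sample 1, against 31.2% of all genes, Csf3r and Elane among them. S100a8 and S100a9 were not, with ranges of 0.039 and 0.088. Proliferation markers (Mki67, Top2a, Cdk1 and Pcna among 7) deviated by 0.03, -0.18 and 0.20. The part of these cells in the slightly lower sterol synthesis values of sample 1 was not tested.

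**Figure D3:**
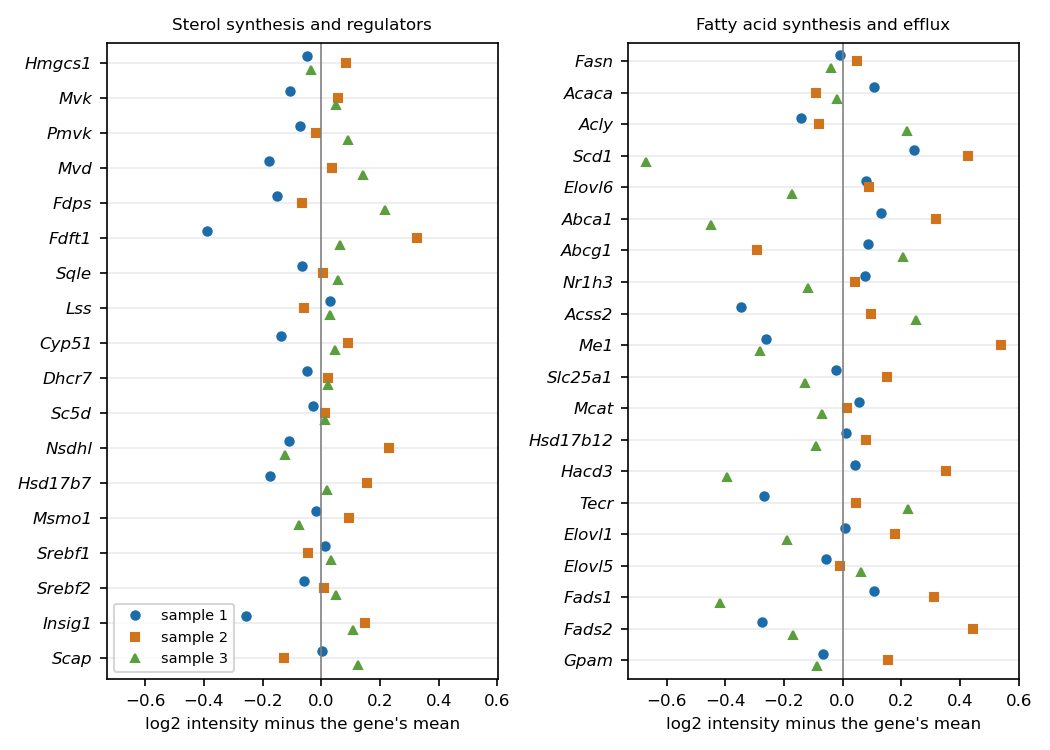
Log2 intensity of each gene minus its mean over the 3 samples (horizontal) for sterol synthesis genes and regulators (left) and for the fatty acid synthesis and efflux genes, followed by further fatty acid synthesis genes (right). In the left panel sample 1 is the lowest point for 11 of 14 sterol synthesis genes and for Insig1 and Srebf2, and in the right panel sample 3 is the lowest for Scd1, Elovl6, Fasn, Abca1 and Nr1h3.

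Of the regulators, Insig1 was lowest in sample 1, as most of the enzymes were. Insig1, which retains SREBP in the endoplasmic reticulum and is itself a target of SREBP, stood at 9.21 in sample 1, 9.61 in sample 2 and 9.58 in sample 3, so that samples 2 and 3 exceeded sample 1 by 0.41 and 0.37. Srebf2, which encodes the SREBP mainly tied to sterol synthesis, differed less, with 8.94, 9.01 and 9.05, or 9.0 ± 0.056 on average (SD, n = 3). Srebf1, which encodes the SREBP mainly tied to fatty acid synthesis, was at 6.87, 6.81 and 6.89, and Scap at 8.16, 8.03 and 8.28. Both had their lowest value in sample 2 and their highest in sample 3. The 4 regulators spanned 0.11 as a list, or 0.0076 without sample 3, and 3 of the 4 had a range below the median of all genes.

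The sterol synthesis promoters are shown because SREBP acts at DNA together with NF-Y, a factor that binds the CCAAT box. RefSeq windows of assembly GRCm38.p6 were at hand for 22 of the 28 genes, and the 250 bases before each start site were searched on both strands for the sterol response element core TCACNCCAC, for CCAAT and for the E-box CACGTG. For a gene with several start sites, the window with the most matches was counted. The core was found in 1 of the 22 genes, Hmgcs1, and in 1.22% of all 27025 genes of the table. A CCAAT box was found in 16 of the 22 genes, and in all 12 sterol synthesis genes that had a window, against 37.5% of all genes. Dhcr7, Pmvk and Srebf1 each had a window with the box and at least 1 without it. An E-box was found in 6 of the 22 genes (Hsd17b7, Sc5d, Dhcr7, Scap, Insig1 and Abca1), against 6.86% of all genes. For Dhcr7 and Scap at least 1 other window lacked the E-box. At least 3 CCAAT boxes occurred in 5 of the 22 genes and in 3.23% of all genes.

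The 5 promoters with at least 3 CCAAT boxes follow, in lower case from 5′ to 3′ along the gene's strand and ending at the base before the start site, with the CCAAT boxes of either strand (ATTGG on the strand shown) and the sterol response element core in capitals. The Hmgcs1 window was to be printed for its core, and the other 4 were chosen after the matches were counted.
Hmgcs1, chr13:119690101-119690350, plus strand: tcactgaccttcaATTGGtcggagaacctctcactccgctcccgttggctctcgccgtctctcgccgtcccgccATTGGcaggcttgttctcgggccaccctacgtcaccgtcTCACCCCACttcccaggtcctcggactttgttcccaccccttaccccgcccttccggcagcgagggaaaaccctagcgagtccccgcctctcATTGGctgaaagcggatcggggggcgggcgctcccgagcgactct
Mvk, chr5:114444019-114444268, plus strand: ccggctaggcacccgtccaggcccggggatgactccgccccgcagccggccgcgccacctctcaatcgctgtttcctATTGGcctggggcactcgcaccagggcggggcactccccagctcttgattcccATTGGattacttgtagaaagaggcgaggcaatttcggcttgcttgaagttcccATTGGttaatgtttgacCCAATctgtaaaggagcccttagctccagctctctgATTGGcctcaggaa
Hsd17b7, chr1:169969206-169969455, minus strand: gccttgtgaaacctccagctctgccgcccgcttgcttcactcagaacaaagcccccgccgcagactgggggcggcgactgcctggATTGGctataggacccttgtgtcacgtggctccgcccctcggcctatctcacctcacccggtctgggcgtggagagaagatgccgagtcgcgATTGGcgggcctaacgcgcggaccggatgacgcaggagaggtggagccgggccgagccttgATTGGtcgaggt
Msmo1, chr8:64733579-64733828, minus strand: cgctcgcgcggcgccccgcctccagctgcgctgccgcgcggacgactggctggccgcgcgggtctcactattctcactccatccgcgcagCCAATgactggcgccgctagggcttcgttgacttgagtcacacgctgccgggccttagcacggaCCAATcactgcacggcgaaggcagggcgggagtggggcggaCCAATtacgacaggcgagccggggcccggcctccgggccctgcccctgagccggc
Fasn, chr11:120824548-120824797, minus strand: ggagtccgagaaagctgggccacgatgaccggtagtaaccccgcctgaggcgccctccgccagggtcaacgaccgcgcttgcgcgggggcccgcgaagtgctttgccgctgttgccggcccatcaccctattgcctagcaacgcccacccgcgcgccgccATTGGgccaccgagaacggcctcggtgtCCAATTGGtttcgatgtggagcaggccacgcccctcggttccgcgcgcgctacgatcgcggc
In Hmgcs1 the core begins 137 bases before the start site, between CCAAT boxes that begin 176 and 45 bases before it. In Mvk 4 of the 5 boxes read ATTGG on the gene's strand and are each 53 bases from the next. In Fasn 2 of the 3 boxes overlap, 1 on each strand, and for Fasn, Hsd17b7 and Mvk RefSeq also places a start of the gene further upstream, so that the window shown belongs to 1 of several start sites. A match describes letters in these windows and does not show that a factor was bound in these cells. The genes with printed promoters did not share 1 order of samples: Mvk, Hmgcs1 and Hsd17b7 were lowest in sample 1, and Msmo1 and Fasn in sample 3.

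Among the fatty acid synthesis genes, Scd1 stood apart from the other 4. Scd1, the desaturase that makes oleate and palmitoleate, was at 9.18 in sample 1, 9.37 in sample 2 and 8.27 in sample 3, on average 8.94 ± 0.59 (SD, n = 3). Its range of 1.10 (2.14-fold) was larger than that of 95.5% of all genes, and it was the 1 member of the 26 with a range above 1. At 1.5-fold Fdft1 and Abca1 passed as well, 3 of 26 members, against 19.9% of all genes. The range rests on the low value of sample 3: samples 1 and 2 differed by 0.19.

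The other 4 enzymes had ranges between 0.09 and 0.36, the largest being that of Acly. Acly, which makes cytosolic acetyl-CoA from citrate, stood at 8.50, 8.56 and 8.86 in samples 1 to 3, and Acaca, which carboxylates it to malonyl-CoA, at 6.63, 6.43 and 6.50. Sample 1 was lowest for Acly and highest for Acaca. Fasn, the synthase that builds palmitate, was at 7.71, 7.77 and 7.68, a range of 0.09 that exceeded the range of 10.7% of all genes. Elovl6, which lengthens palmitate to stearate, the substrate of Scd1, was at 6.77, 6.78 and 6.52. Elovl6, Fasn and Scd1 were lowest in sample 3, 3 of 5 genes, against 33.3% of all genes. The list medians were 0.08, 0.05 and -0.04, a span of 0.12 that was 0.057 without sample 3 and 0.22 when the list was summarised by its mean.

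Further genes of fatty acid synthesis were mostly highest in sample 2 and lowest in sample 3. Of 20 listed, 19 were measured and 12 (63.2%) detected on all 3 arrays, close to the 60.5% of all genes outside the receptors. Of these 12, 8 were lowest in sample 3, against 33.3% of all genes, and 8 were highest in sample 2, against 32.5%. Me1 and Gpam, which starts glycerolipid synthesis and is named after its values were seen, were lower in sample 3 than in sample 1 by only 0.02. The list medians were -0.04, 0.15 and -0.11, a span of 0.26 that was 0.21 without sample 3 and 0.061 without sample 2, so that it rests on sample 2 and not, as in the member list, on sample 3. The 3 with the largest range were Me1, a malic enzyme that supplies reducing power, Hacd3, a dehydratase of chain elongation, and Fads1, a desaturase of polyunsaturated fatty acids. Me1 stood at 6.11, 6.92 and 6.10 in samples 1 to 3. Hacd3 was at 6.71, 7.02 and 6.28, and Fads1 at 8.67, 8.87 and 8.14, both in the order of Scd1. The other 7 were below the detection level on all 3 arrays: Acacb, the carboxylase tied to mitochondria, Olah, a thioesterase, Elovl7, an elongase, the desaturase copies Scd3 and Scd4, and Mlxipl and Thrsp, regulators of lipogenesis known from liver and fat. A probe set below the detection level does not show that the gene is silent.

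Of 8 adipocyte markers 6 (75%) were detected on all 3 arrays, against 60.5% of all genes outside the receptors. Adipoq, which encodes adiponectin, stood at 5.59, 5.50 and 5.23 in samples 1 to 3, and the lipid droplet gene Plin1 at 5.51, 5.57 and 5.22, just above the detection level. Cidec, another lipid droplet gene, was below it on all 3 arrays, and Fabp4, which macrophages and endothelium also express, was at 8.98, 8.64 and 8.98. Of 7 measured sebaceous and gland genes 2 (28.6%) were detected on all 3 arrays, with Mgst1 at 8.21, 8.35 and 8.36. Krt79, Awat1 and Awat2 were below the detection level on all 3. Adipoq and Plin1 were lowest in sample 3, as Scd1 was, by 0.37 and 0.35 from their highest value against 1.10 for Scd1. The list did not follow them: 3 of the 6 detected were highest in sample 3, against 32.8% of all genes, and its medians were 0.09, -0.12 and 0.06. Fibroblast and pericyte markers were also lowest in sample 3, in 8 of 8 and 7 of 8 genes, against 33.3% of all genes. Their median deviations in samples 1 to 3 were 0.08, 0.36 and -0.43 (fibroblast) and -0.06, 0.61 and -0.55 (pericyte). Their part in the low Scd1 value of sample 3 was not tested.

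The efflux genes were all detected and did not move as a set. Abca1, which loads cholesterol onto lipid-poor apolipoprotein A-I, stood at 8.59, 8.78 and 8.02 in samples 1 to 3, a range of 0.76 (1.70-fold) that exceeded that of 88.4% of all genes. Abcg1, which passes cholesterol to mature lipoprotein particles, ran the other way, at 7.63, 7.25 and 7.75. Abca1 was thus highest and Abcg1 lowest in sample 2. Nr1h3, the gene of the receptor LXR alpha, of which both transporters are known targets, was at 5.58, 5.55 and 5.39, near the detection level. The list medians were 0.09, 0.04 and -0.12, a span of 0.20 that was 0.034 without sample 3.

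Macrophage and monocyte markers as a list deviated by 0.07, 0.11 and -0.16 in samples 1 to 3. Of these 8 genes 4 were lowest in sample 3, as Abca1 was, against 33.3% of all genes. The list was divided, since 3 of 8 were lowest in sample 1 (31.2% of all genes) and 2 of 8 were highest in sample 3 (32.8%). Those lowest in sample 3 included Adgre1, at 9.46, 9.19 and 8.47, and Csf1r, at 10.35, 10.54 and 9.99. The general macrophage gene Cd68 stood at 10.80, 10.88 and 10.82 and Cd14 at 9.98, 10.21 and 10.20, both lowest in sample 1. The part of macrophages or fibroblasts in the level of Abca1 was not tested.

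Other genes of cholesterol handling were detected in 11 of 11 measured cases out of 14 listed, against 60.5% of all genes outside the receptors. The 3 with the largest range were Abca7, a transporter related to Abca1, Scarb1, the receptor for high-density lipoprotein, and Abcg4, a relative of Abcg1. Abca7 stood at 6.38, 6.69 and 7.24 and Scarb1 at 7.24, 7.31 and 7.91, both highest in sample 3, while Abcg4 was at 5.77, 6.0 and 5.54 and lowest there. Of the further sterol pathway genes all 12 measured of 15 listed were detected. The 3 with the largest range were Rdh11, a retinal reductase, at 6.4, 6.66 and 6.80, Ggps1, which makes geranylgeranyl diphosphate, at 8.04, 7.92 and 7.70, and Erlin1, a protein of the endoplasmic reticulum that takes part in SREBP control, at 7.66, 7.66 and 7.98. In this sterol pathway list 4 of 12 genes were lowest in sample 1, close to the 31.2% of all genes. In sample 2, 7 of 12 were higher than in sample 1, against 50.7% of all genes. Its median deviations were nonetheless lowest in sample 1, at -0.07, 0.05 and -0.02, and the median difference of sample 2 minus sample 1 was 0.15, against 0.12 in the members. In the cholesterol handling list 6 of 11 genes were lowest in sample 1, and 9 of 11 were higher in sample 2 than there, against the same 31.2% and 50.7%. Its median deviations were -0.11, 0.03 and 0.10.

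**Figure D4:**
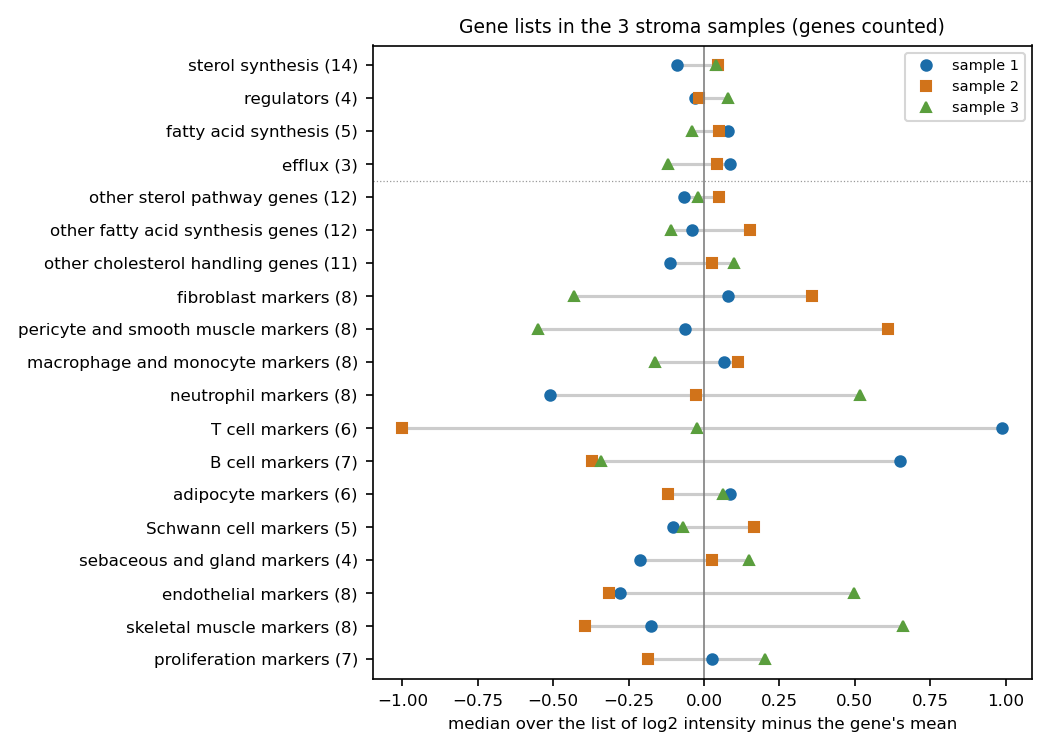
Median over each list of log2 intensity minus the gene's mean (horizontal) in samples 1, 2 and 3, with the number of genes detected on at least 1 array in brackets; the 4 member lists stand above the dotted line. The member lists span 0.11 to 0.20, against 1.99 for T cell and 1.16 for pericyte and smooth muscle markers.

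Set beside most marker lists, the lipid genes spanned little. The sterol synthesis list spanned 1.10-fold, the regulators 1.08-fold, the fatty acid list 1.09-fold and the efflux list 1.15-fold between samples, or 0.11 to 0.20 on the log2 scale. On that scale the T cell list spanned 1.99 (0.94 without sample 1, 0.96 without sample 2) and the pericyte list 1.16 (0.49 without sample 2, 0.74 without sample 3). The skeletal muscle list (Myod1, Myog, Acta1 and Ttn among 8) spanned 1.05 and the endothelial list (Pecam1, Cdh5, Kdr and Tek among 8) 0.81, but 0.26 and 0.13 without sample 3. The neutrophil list spanned 1.03 (0.44 without sample 1, 0.47 without sample 3), the B cell list 1.02 (0.11 without sample 1) and the fibroblast list 0.79 (0.27 without sample 3). The macrophage list spanned 0.27, or 0.52 when summarised by its mean and 0.094 without sample 3. The Schwann cell list (with Mbp, Sox10, Pmp22 and Cdh19) spanned 0.27 and the adipocyte list 0.21, or 0.041 and 0.034 without sample 2. Markers are restricted to cell types by choice, so these lists are not a neutral scale for enzymes that many cell types express.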

How the data were processed

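The file the authors deposited holds log2 intensities of 31873 probe sets on 3 arrays. Per the submitters' processing notes Partek was used, with no version or role, and background correction, normalization and summarization are not given there. That the scale is log2 was inferred from the values, between 2.00 and 13.18, with array medians of 5.35, 5.34 and 5.36. Equal values on at least 2 arrays occurred in 15.5% of probe sets, for a reason that was not tested. The number of arrays limits the precision.

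Genes were named from GEO's platform annotation where a probe set had 1 symbol (23094 probe sets), and the brightest probe set was kept. The detection level and the 2-fold range are described with the results. No test was run, since the 3 samples form 1 group. All members, the 3 genes of each further pathway list with the largest range and those never detected, and the first 4 measured genes of each marker list were named. The members and lists were chosen with earlier results of these data known. Python 3.11.15, numpy 2.4.6 and pandas 2.3.3 were used. The counting of ranges was tested on simulated data whose noise was smaller than the spread between these samples. Alternatives changed the scaling, the probe set rule, the detection level, the size threshold, the filter and the summary, and left out each sample in turn. Protein sequences were not used here.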

Additional observations from a re-analysis of the deposited data

How the results depend on the processing

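The 26 genes were also detected with quantile normalization and at a detection level set by the array's median. With the 99th percentile 20 were detected. The 90th percentile, centring of the arrays and leaving out a sample also gave 26, but these settings cannot lower the count. The count of members with a range above 1 was 1 in the main setting, 3 (Scd1, Fdft1 and Abca1) with a threshold of 1.5-fold, which 19.9% of all genes passed, and 0 to 1 when a sample was left out, with 0 without sample 2 or sample 3. The count of sterol synthesis genes lowest in sample 1 was 8 of 10 at the 99th percentile and 9 of 11 without genes that had equal values. In the other settings with 3 samples it was 10 to 12 of 14. Without sample 2 it was 11 of 14 and without sample 3 it was 13 of 14. These last 2 counts compare sample 1 with 1 other sample, where in the main setting 47.6% and 50.7% of all genes exceeded sample 1. Leaving out 1 sample gave spans of 0.0027 to 0.14 for sterol synthesis, 0.0076 to 0.12 for regulators, 0.057 to 0.13 for fatty acid synthesis and 0.034 to 0.19 for efflux. With the mean of the members the fatty acid span was 0.22. Quantile normalization moved the mean level of each of the 26 members by less than its SD; centring and the probe set rule cannot move these means. The restriction to genes detected on all 3 arrays and to genes with a mean inside the members' span was added after seeing the data. No paired analysis was possible because the samples form 1 group. With 1 array a sample and no repeat arrays, differences of the size seen in most members could not be told apart from measurement error.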
